A study of Nannochloropsis oceanica with 36 samples.

Results

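In the marine microalga Nannochloropsis oceanica IMET1, 43 gene models stood lower without nitrogen than with it in the first hours and higher 1 to 2 days later. They are 0.446% of the 9647 models that reached 1 FPKM in 3 or more libraries, of 9756 models in all. FPKM scales the sequenced fragments of a model by its length and by the fragment total of its library. A difference here is the mean log2(FPKM + 1) of 3 N-deprived libraries minus that of 3 N-replete libraries at 1 time. The early effect averages the differences at 3, 4 and 6 h, and the late effect those at 24 and 48 h. A member has an early effect of -0.5 or less and a late effect of 0.5 or more.

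The members were chosen by their FPKM at those 5 times, so these values are given below as a description without a test. The 12 h libraries took no part in the choice, and the media were tested there. Every member passed the filter on low values, because the filter belongs to the choice.

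Microalgae that run out of nitrogen stop dividing, recycle nitrogen from protein and pigment, and store carbon as neutral lipid and carbohydrate. Nannochloropsis, a small eustigmatophyte, is known for the large amount of triacylglycerol it then builds up in lipid bodies.

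The series holds 36 poly(A) mRNA libraries in 12 groups of 3 biological replicate cultures. N-deprived cells were put into medium lacking nitrogen and N-replete cells, the controls, into medium containing it, after all had been grown to mid-logarithmic phase and washed, and both were sampled at 3, 4, 6, 12, 24 and 48 h after the transfer. All were the same strain, kept under constant illumination at 25 °C and bubbled with air enriched in CO2. Whether a replicate number follows 1 culture over time is not given in the sources used here.

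Summed FPKM ranged between 475304 and 629498 over the libraries. The relative depth, read from the steps in low FPKM values, ran between 0.729 and 2.711. At 12 h the median FPKM of all tested models was below 21 in each N-deprived library (19.2 to 21.0) and in each N-replete library (17.8 to 20.3), against 24.6 to 31.3 over both media at 24 and 48 h. FPKM is a share of a library, so each difference is relative to the rest of the transcripts. Fewer cells of one state and less RNA per cell cannot be told apart in bulk libraries.

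None of the 9756 identifiers matched the annotation table used here, which lists 160 genes, so the members carry model identifiers and positions and no gene names or functions. Positions are counted from 1 on the sequences of the files, for which the sources used here name no genome build.

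The members were spread over 23 of 284 sequences. The sequences scaffold00043, scaffold00182 and scaffold00295 held 4 each, of 533, 371 and 388 models. Members were of ordinary abundance, with a median of the mean FPKM over libraries of 23.0 (range 3.76 to 231), against 28.3 for all tested models. Their loci, introns included, had a median length of 2562 bp (442 to 27028 bp), against 2135 bp for all tested models. No member locus overlapped another locus in the file.

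The early effect of the members had a median of -0.64 and ran between -1.65 and -0.51. Their late effect had a median of 0.68 and ran between 0.50 and 1.36. The medians over all tested models were 0.06 for the early and 0.14 for the late effect. An early effect of -0.5 or less was found in 494 models and a late effect of 0.5 or more in 2533. The 43 members are 8.70% of the first list, while 26.3% of all tested models had such a late effect. They are 1.70% of the second list, while 5.12% of all tested models had such an early effect. Both shares thus lay below those over all tested models. The opposite pattern, higher early and lower late at the same thresholds, was found in 9 models.

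**Figure D1:**
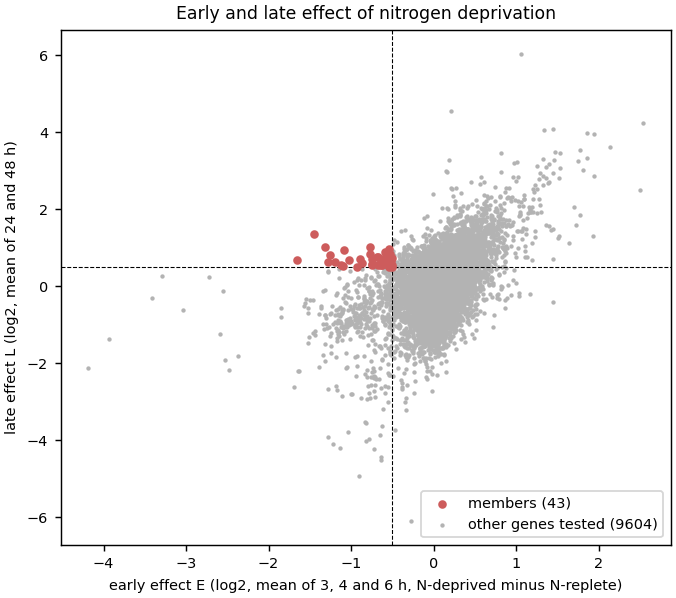
Late effect against early effect for each tested model, in log2(FPKM + 1) units, N-deprived minus N-replete, with the 43 members in red, the other models in grey and the thresholds of -0.5 and 0.5 dashed. The members fill a sparse corner, most of them close to a threshold; the member farthest left, at -1.65, is scaffold00259.g7284, and the highest, at 1.36, is scaffold00088.g3278.

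Several members lay at the edge. Just inside the early threshold were scaffold00026.g1482 with an early effect of -0.506 and scaffold00145.g4883 with -0.508. Just outside it were scaffold00009.g677 with -0.495 and scaffold00247.g6807 with -0.492. Just inside the late threshold were scaffold00043.g1963 with a late effect of 0.503 and scaffold00145.g4884 with 0.510. Just outside it were scaffold00330.g9577 with 0.498 and scaffold00185.g5931 with 0.484. Where the limits are set therefore decides much of the list. With both thresholds at 0.7 it held 8 models, and with both at 0.4 it held 71. With each library centred on its median ratio to the model means it held 27 models, 22 of them among the 43. With 24 h as the only late time it held 15, of which 14 were among the 43, and with 4 and 6 h as the only early times it held 25, all among the 43. Of the 43, 17 also met the thresholds under centring of each library, under quantile normalization and without each replicate number in turn.

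The depression was deepest at the first sampling and faded. At 3 h the median difference of the members was -0.94 (range -2.71 to -0.42), and at 4 h it was -0.71 (-1.75 to -0.38). At 6 h it was -0.37 (-1.33 to 0.20), with 3 members already above 0.

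The media were fully separated at 3 and 4 h in nearly every member. At 3 h all 3 N-deprived libraries lay below all 3 N-replete libraries in 43 of 43 members, against 16.1% of all tested models. At 4 h this held for 41 members (17.0% of tested models), and at 6 h for 23 (19.5% of tested models). These times chose the members, so the counts describe them only.

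After 12 h the order of the media was turned round. At 24 h the median difference was 0.36 (0.09 to 1.07), with every N-deprived library above every N-replete library in 35 members, against 42.3% of tested models. At 48 h it was 0.95 (0.59 to 2.19), with this separation in all 43 members, against 47.8% of tested models. The order of the media was the one the choice asks for, with no overlap, at all 5 times in 18 members. The share of all tested models with this was not counted. These times chose the members, so the counts describe them only.

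A difference of at least 2-fold on the log2(FPKM + 1) scale was uncommon at most times. It was reached downward in 16 members at 3 h, 7 at 4 h, 3 at 6 h and 2 at 12 h. Upward it was reached in 1 member at 24 h and in 19 at 48 h. All these times but 12 h chose the members, so the counts describe them only. The share of all tested models with such a difference was not counted.

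**Figure D2:**
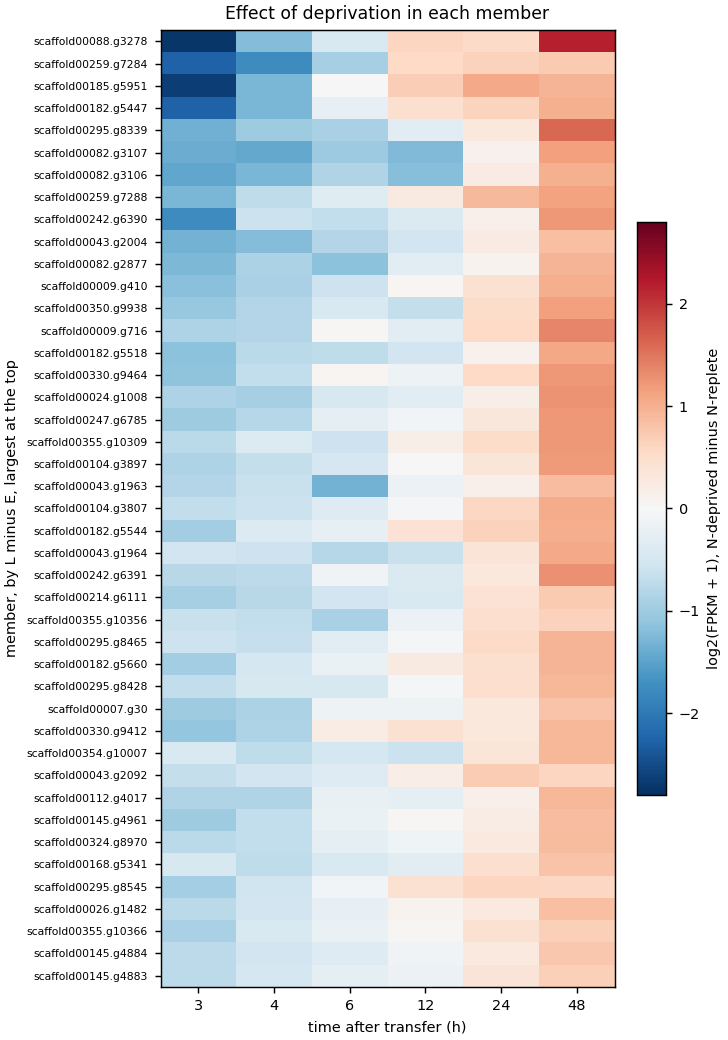
Difference in log2(FPKM + 1), N-deprived minus N-replete, for each of the 43 members (down the page, largest late minus early effect at the top) at 6 times (across). Blue (lower in N-deprived) is darkest at 3 h and red (higher in N-deprived) at 48 h, and the 12 h column holds both colours.

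The lowest of the 3 early differences was at 3 h in 35 members (81.4%), at 4 h in 5 and at 6 h in 3. Of the 451 other models with an early effect of -0.5 or less, 249 (55.2%) had their lowest at 3 h. The difference grew step by step less negative, 3 h below 4 h below 6 h, in 31 members (72.1%) and in 53.2% of those 451 models. Late, the difference at 48 h was above that at 24 h in 40 members (93.0%) and in 1713 (68.8%) of the 2490 other models with a late effect of 0.5 or more. Over all 6 times the difference was higher at every step in 20 members, against 3.31% of tested models. The choice of members favours such a course, and no test was made of these shares.

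Both media contributed to the pattern at different times. In N-deprived libraries the median over members of the mean FPKM was 12.5 at 3 h, 9.90 at 4 h, 10.4 at 6 h, 18.2 at 12 h, 41.0 at 24 h and 37.7 at 48 h. In N-replete libraries it was 24.8, 18.7, 15.5, 21.7, 30.6 and 18.2 at the same times. The members thus stood low in N-deprived cells through 6 h and high at 24 and 48 h. In N-replete cells they sank through 6 h, stood higher at 24 h and were low again at 48 h.

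**Figure D3:**
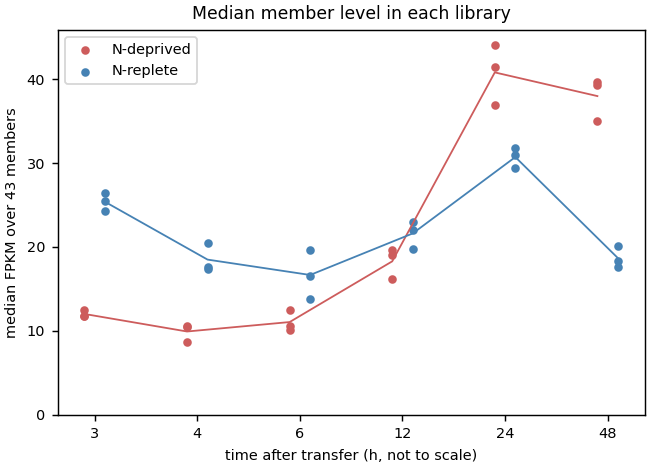
Median FPKM over the 43 members in each library (points) at 3 to 48 h, with a line through the mean of the 3 libraries of each medium, N-deprived in red and N-replete in blue. N-deprived points lie below N-replete points at 3 to 6 h and above them at 24 and 48 h; at 12 h the 3 N-deprived points (16.2 to 19.7) lie just below the N-replete points (19.8 to 23.0).

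As a share of summed FPKM the members took 0.155% to 0.159% of each N-deprived library at 3 h, against 0.358% to 0.365% of each N-replete library. At 48 h they took 0.583% to 0.682% of N-deprived libraries, against 0.306% to 0.315% of N-replete libraries.

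Within N-deprived medium every member was higher at 24 h than at 6 h, with a median change of 1.62 in log2(FPKM + 1), while the median over all tested models was 0.11. Most of that lay on both sides of 12 h, since the median change was 0.80 over 6 to 12 h (40 members higher) and 0.94 over 12 to 24 h (38 members higher). Over 6 to 12 h the median of all tested models was -0.59 without nitrogen and -0.68 with it, so most members moved against the bulk there. In N-replete medium too, 33 members were higher at 12 h than at 6 h, by a median of 0.52. Over 12 to 24 h in N-deprived medium the median of all tested models was 0.69. There 73.6% of tested models were higher, so the members' rise in that step was one that most models shared. Over 24 to 48 h the members' median change in N-deprived medium was 0.02, with 23 members higher and 20 lower.

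Within N-replete medium 41 of 43 members were also higher at 24 h than at 6 h, but by a median of 0.81. All tested models had a median of -0.03 over this step, with 47.8% higher, so the members' rise was not limited to N-deprived medium. The media, already apart at 24 h in most members, parted further after it. Over 24 to 48 h, 39 members were lower in N-replete medium, by a median of -0.50, while all tested models had a median of 0.04. So the widening between 24 and 48 h came with lower levels in replete cells more than with higher levels in deprived cells.

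From the early to the late times the mean level in N-deprived medium was up in all 43 members by at least 0.5, with a median of 1.67 (0.96 to 3.44). In N-replete medium the same change had a median of 0.24 (-0.39 to 1.06), with 36 members above 0 and 7 below. A gain of 0.5 or more in N-deprived medium without a drop of that size in N-replete medium was found in 43 members, against 27.5% of tested models. The reverse, a drop in N-replete medium without the gain in N-deprived medium, was found in 0 members, against 11.0% of tested models. The choice favours these counts. The N-deprived change less the N-replete change equals the late minus early effect, which was 1.02 or more in each member.

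The model with the widest swing was scaffold00088.g3278 (positions 32246 to 37007 of scaffold00088). At 3 h it had 3.69, 3.53 and 3.09 FPKM in N-deprived libraries, against 28.9, 27.6 and 27.7 FPKM in N-replete libraries. At 48 h it had 101, 68.0 and 93.3 FPKM in N-deprived libraries, against 18.3, 17.3 and 18.9 FPKM in N-replete libraries. All N-deprived libraries were far below the N-replete ones at 3 h and far above them at 48 h, with no overlap. Between these times its N-deprived mean went through 8.09, 14.7, 51.2 and 97.9 FPKM at 4, 6, 12 and 24 h. Its N-replete mean went through 19.4, 33.2 and 66.4 FPKM at 6, 12 and 24 h, so the model was high at 24 h in both media and by 48 h was low again in replete medium. On the log2(FPKM + 1) scale it averaged 2.73-fold lower in N-deprived cells early and 2.56-fold higher late.

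The most abundant member, scaffold00259.g7284 (288810 to 290609 of scaffold00259), had the lowest early effect, -1.65. Its 3 h values were 86.1, 96.8 and 85.2 FPKM in N-deprived libraries, against 431, 422 and 444 FPKM in N-replete libraries. At 48 h it stood at 504, 323 and 464 FPKM in N-deprived libraries, against 245, 253 and 259 FPKM in N-replete libraries. The groups do not overlap at either time. In N-replete medium its mean sank to 95.3 FPKM at 12 h and was 223 FPKM at 24 h.

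A similar course was seen in scaffold00185.g5951 (599560 to 602681 of scaffold00185). It had 16.9, 18.8 and 14.8 FPKM in N-deprived libraries at 3 h, against 106, 104 and 119 FPKM in N-replete libraries. At 6 h the media met, at 77.2, 108 and 73.0 FPKM in N-deprived libraries and 88.4, 86.7 and 83.1 FPKM in N-replete libraries. From 12 h on the N-deprived libraries were the higher ones, with 494, 285 and 451 FPKM at 48 h against 198, 202 and 215 FPKM in N-replete libraries.

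In scaffold00182.g5447 (257517 to 259578 of scaffold00182) 1 library broke the pattern. At 3 h it had 20.5, 23.2 and 18.7 FPKM in N-deprived libraries, against 100.1, 106 and 106 FPKM in N-replete libraries. At 24 h its N-deprived libraries read 63.5, 182 and 167 FPKM and its N-replete libraries 80.5, 75.8 and 84.8 FPKM, so N-deprived replicate 1 lay below the whole replete group while the other two lay above it. At 48 h the media were apart again, with 192, 94.5 and 160.3 FPKM in N-deprived libraries and 70.4, 70.9 and 73.3 FPKM in N-replete libraries.

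**Figure D4:**
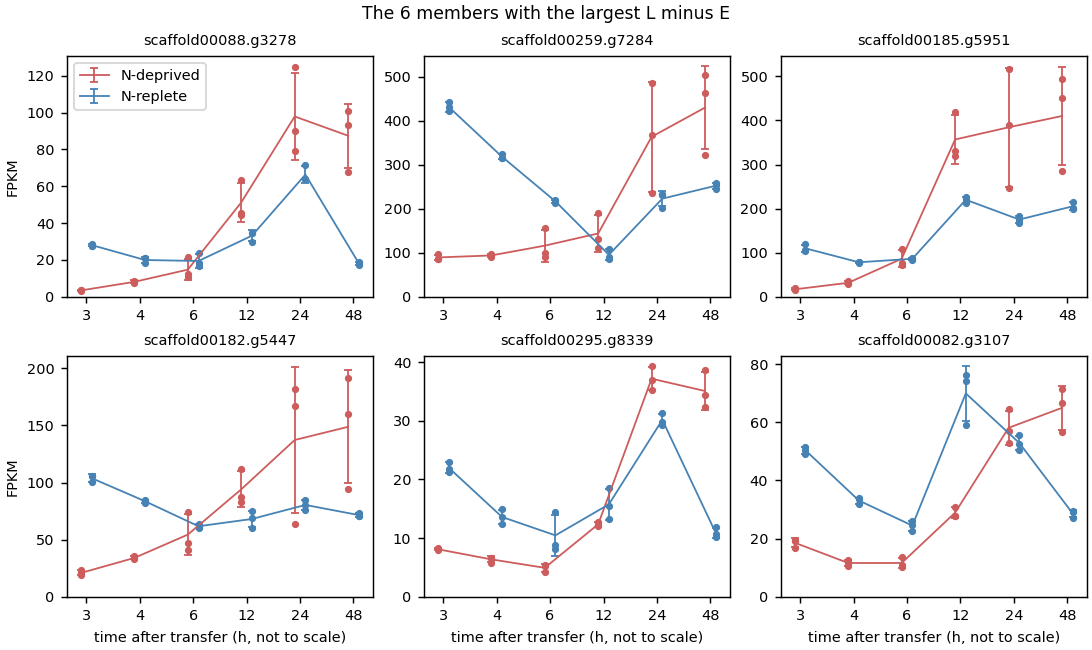
FPKM in each library (points) with the group mean and SD (n = 3), N-deprived in red and N-replete in blue, at 6 times for the 6 members with the largest late minus early effect. In each panel the red points start below the blue ones at 3 h and end above them at 48 h, and the red points of the first 4 panels scatter widely at 24 and 48 h.

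Those 4 members shared an order of the N-deprived libraries at 3 of the 6 times. At 6 h replicate 3 was lowest and replicate 2 highest in all 4, at 24 h replicate 1 was lowest and replicate 2 highest, and at 48 h replicate 2 was lowest and replicate 1 highest. The same order of the 3 libraries was found in 39.5%, 25.6% and 25.6% of the members at 6, 24 and 48 h, the 4 included, and in 17.5%, 9.89% and 10.9% of tested models. At the other times they did not all share an order: at most 3 of the 4 did at 3 h, 1 at 4 h, where all differed, and 2 at 12 h. Even so, replicate 1 was the highest N-deprived library at 12 h in all 4. At 24 h the highest N-deprived library was 1.58, 2.06, 2.10 and 2.86 times the lowest in the 4 members, against a median of 1.14 times over tested models. This likeness was looked for after the values were seen, and what differs between these libraries was not tested.

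The next members by size of swing were tighter. In scaffold00295.g8339 (70208 to 73041) the 48 h values were 38.6, 34.4 and 32.3 FPKM in N-deprived libraries, against 10.7, 10.1 and 11.8 FPKM in N-replete libraries. Its 3 h values were 8.05, 8.29 and 7.95 FPKM in N-deprived libraries, against 21.3, 23.0 and 21.8 FPKM in N-replete libraries. At 24 h both media were high, with means of 37.2 ± 1.99 FPKM in N-deprived and 30.2 ± 1.04 FPKM in N-replete libraries (SD, n = 3 each). Its 48 h difference, 1.60, was the second largest of the members, and it came with a replete mean of 10.9 FPKM at that time.

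Next in size came scaffold00082.g3106 (778623 to 779997) and scaffold00082.g3107 (783893 to 784987), which are neighbours on the same sequence, 3895 bp apart. In g3106 the 3 h values were 43.7, 46.3 and 42.9 FPKM in N-deprived libraries, against 119.8, 122 and 129 FPKM in N-replete libraries. In g3107 they were 19.2, 19.6 and 16.9 FPKM in N-deprived libraries, against 50.5, 51.6 and 49.0 FPKM in N-replete libraries. Both were still lower in N-deprived than in N-replete medium at 12 h, when the replete level peaked. Their N-deprived means had risen by then, from 39.9 FPKM at 6 h to 77.8 FPKM in g3106 and from 11.6 to 28.9 FPKM in g3107. Both crossed over by 24 h only narrowly. At 24 h g3107 read 56.9, 64.5 and 52.8 FPKM in N-deprived libraries and 55.5, 52.6 and 50.5 FPKM in N-replete libraries, which overlap.

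Of the other members with a large swing, scaffold00259.g7288 (295720 to 298114) lies on the sequence of g7284. It had a mean of 2.78 ± 0.319 FPKM in N-deprived and 8.23 ± 0.354 FPKM in N-replete libraries at 3 h (SD, n = 3 each), and 21.3 ± 1.06 FPKM in N-deprived libraries against 9.23 ± 1.02 FPKM in N-replete libraries at 48 h. The remaining 3 with the largest swings were scaffold00043.g2004, scaffold00082.g2877 and scaffold00009.g410, with early effects of -1.12, -1.10 and -0.89 and late effects of 0.54, 0.52 and 0.72. In g2877 the late effect rested on 48 h, since its 24 h difference was 0.09, with 40.5, 35.0 and 32.8 FPKM in N-deprived libraries against 33.8, 34.5 and 32.8 FPKM in N-replete libraries.

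The shortest member locus, scaffold00242.g6390 (834 to 1275, 442 bp), was measured poorly. It read 6.52, 0 and 5.45 FPKM in N-deprived libraries at 3 h, against 10.3, 12.5 and 11.5 FPKM in N-replete libraries. The 0 is the only one among the members, and an exact 0 in such a table can be a failed estimate. Without replicate 2 its early effect was -0.72 in place of -1.02, and it still met the threshold.

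Several members were abundant throughout. In scaffold00355.g10356 (161396 to 168624) the N-deprived mean was 88.8 FPKM at 3 h and 399 FPKM at 48 h, against 138 FPKM and 256 FPKM in N-replete libraries. It was 1 of the 3 members with their lowest difference at 6 h, where it had 146, 159 and 152 FPKM in N-deprived libraries, against 274, 278 and 309 FPKM in N-replete libraries. In scaffold00350.g9938 (6996 to 9416) the 3 h values were 87.9, 89.3 and 81.7 FPKM in N-deprived libraries, against 171, 174 and 199.5 FPKM in N-replete libraries. Its 48 h values were 247, 249 and 232 FPKM in N-deprived libraries, against 106, 108 and 112 FPKM in N-replete libraries. In both models the media were apart at these times.

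In scaffold00007.g30 (56867 to 59861) the N-deprived values at 3 h were 69.0, 67.4 and 69.3 FPKM, against 131, 135 and 147 FPKM in N-replete libraries. At 6 h they were 49.2, 52.1 and 46.5 FPKM in N-deprived libraries, against 49.3, 54.1 and 60.8 FPKM in N-replete libraries, which overlap. At 48 h they were 153, 162 and 147 FPKM in N-deprived libraries, against 84.9, 87.8 and 93.7 FPKM in N-replete libraries.

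At 12 h, the time that took no part in the choice, the members were split. In limma's moderated test over all 36 libraries with Benjamini-Hochberg adjustment over 9647 models, 7 members were higher (16.3%) and 14 lower (32.6%) in N-deprived cells at an adjusted p under 0.05. Over all tested models 38.7% were called higher and 23.9% lower, 62.5% in either direction. The other 22 members were not called. The median 12 h difference of the members was -0.11 (range -1.24 to 0.68), against 0.10 over all tested models, with 28 members below 0 and 15 above. In 15 members, 1 of them called, the 12 h difference lay on both sides of 0 over the 19 alternatives. Without replicate 1 of every group 3 of 43 members and 2819 of 9647 tested models were called higher. Without replicate 3, 8 of 43 members and 1758 of 9647 tested models were called lower, nearly the same share in both.

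**Figure D5:**
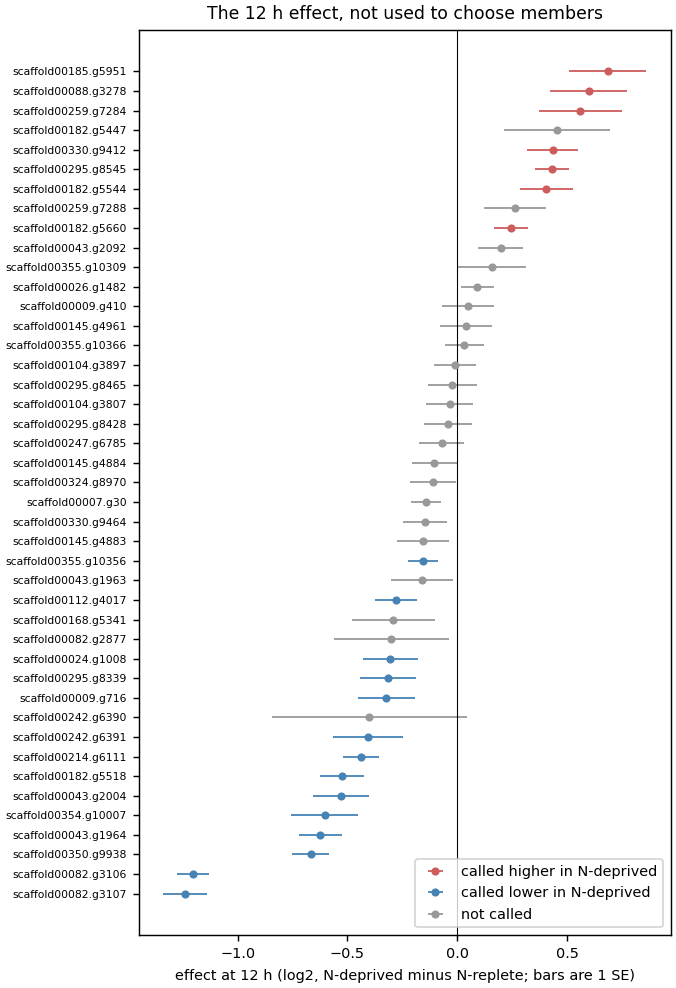
Difference at 12 h in log2(FPKM + 1), N-deprived minus N-replete, for each member with a bar of 1 standard error to each side, from limma. Red members (7) were called higher, blue (14) lower and grey (22) not called; g3106 and g3107 stand apart at the low end.

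Members called lower at 12 h were led by the neighbours on scaffold00082. In g3107 the 12 h values were 31.0, 27.9 and 27.8 FPKM in N-deprived libraries, against 76.3, 59.2 and 74.4 FPKM in N-replete libraries, and the groups do not overlap. Its difference was -1.24 (SE 0.098, limma adjusted p = 3.20e-12). In g3106 they were 82.9, 81.8 and 68.8 FPKM in N-deprived libraries, against 176, 174 and 190.3 FPKM in N-replete libraries, with a difference of -1.20 (SE 0.074, limma adjusted p = 7.72e-15). These are the only members more than 2-fold apart at 12 h.

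Next came scaffold00350.g9938, with 139, 136 and 127 FPKM in N-deprived libraries, against 236, 196 and 209.6 FPKM in N-replete libraries. Its difference was -0.67 (SE 0.083, limma adjusted p = 4.05e-08). In scaffold00043.g1964 (1243764 to 1245808) the values were 19.7, 19.0 and 16.4 FPKM in N-deprived libraries, against 29.4, 26.5 and 30.4 FPKM in N-replete libraries, with a difference of -0.62 (SE 0.097, limma adjusted p = 2.00e-06). Neither overlapped between media. These 4 and 4 others, scaffold00354.g10007, scaffold00043.g2004, scaffold00182.g5518 and scaffold00214.g6111, were called lower under each of 19 alternatives, while the other 6 lower calls were lost under at least 4 of them.

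The largest upward difference was that of scaffold00185.g5951, with 420.2, 319 and 331 FPKM in N-deprived libraries, against 226, 222 and 213 FPKM in N-replete libraries. It was 0.68 (SE 0.177, limma adjusted p = 0.00128). In scaffold00088.g3278 the values were 63.4, 45.7 and 44.7 FPKM in N-deprived libraries, against 34.8, 29.9 and 34.8 FPKM in N-replete libraries, a difference of 0.60 (SE 0.176, limma adjusted p = 0.00409). The N-deprived libraries were above the replete ones in both models. In scaffold00259.g7284 they were 190.2, 131 and 111 FPKM in N-deprived libraries, against 90.5, 86.2 and 109 FPKM in N-replete libraries, a difference of 0.56 (SE 0.189, limma adjusted p = 0.0116). There the lowest N-deprived library was barely above the highest replete one.

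The calls of g3278 and g7284 were lost when replicate 1 was left out of all groups. Without it in every group the difference of g3278 was 0.47 (limma adjusted p = 0.0726, Benjamini-Hochberg) and that of g7284 was 0.31 (adjusted p = 0.194). Without N-deprived 12 h replicate 1 alone the difference of g7284 was 0.34 (limma adjusted p = 0.138). In scaffold00330.g9412 (714569 to 718590) the 12 h values were 30.4, 33.3 and 25.7 FPKM in N-deprived libraries, against 18.9, 22.2 and 24.3 FPKM in N-replete libraries, a difference of 0.44 (SE 0.116, limma adjusted p = 0.00173). That call too was lost without replicate 1 (limma adjusted p = 0.0624). It was 1 of the 3 members above 0 at 6 h, where it had 11.4, 11.0 and 10.9 FPKM in N-deprived libraries, against 9.33, 9.75 and 9.50 FPKM in N-replete libraries. Of the 7 higher calls, those of g5951 and scaffold00295.g8545 were kept under all 19 alternatives.

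The 4 members with the largest swings were all above 0 at 12 h, 3 of them called, while scaffold00182.g5447 had a difference of 0.45 with the larger SE of 0.240 and was not called (limma adjusted p = 0.101, and 0.0135 to 0.312 over the alternatives). Its call depended on the libraries in the fit, since the same difference had an adjusted p of 0.0135 when limma was fitted to the 12 h libraries alone, without the spread of the other times. In each of the 4 members with the largest swings, replicate 1 was the highest N-deprived library at 12 h, so their differences share that library. Without that library alone the differences were 0.44 in g3278, 0.34 in g7284, 0.56 in g5951 and 0.32 in g5447. The 14 members called lower had a median difference of -0.63 at 6 h and of 0.30 at 24 h. The 7 called higher had -0.19 at 6 h and 0.59 at 24 h. Taking the first time with a mean difference above 0 after the early times, 15 members were there by 12 h and the other 28 by 24 h.

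The 2 sets of models that share only 1 side of the pattern are set beside the members at 12 h as a description, with no test of the sets. Of the 451 models low early without the late excess, 396 (87.8%) were called lower and 5 higher by limma at 12 h, with a median difference of -0.93. Of the 2490 models high late without the early deficit, 1446 (58.1%) were called higher and 271 (10.9%) lower, with a median of 0.32. The members, with 32.6% lower and 16.3% higher, lay between these. The early-low models were also more abundant, with a median of the mean FPKM of 92.7, against 23.0 for the members and 25.1 for the late-high models. The early-low models had a median difference of -1.04 at 24 h and -0.52 at 48 h, while at 3 h their median was -0.91, close to the members' -0.94.

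Neighbouring members formed 4 pairs that hold 8 of the 43. Beside g3106 and g3107 these were scaffold00043.g1963 and g1964, 94 bp apart, scaffold00145.g4883 and g4884, 94 bp apart, and scaffold00242.g6390 and g6391, 50 bp apart. Libraries do not keep strand, per the labels' protocols, and fragments that run past the end of a locus could be counted for its neighbour, which was not tested. The paired models differ in level. At 12 h g1963 had 8.37, 7.39 and 5.89 FPKM in N-deprived libraries and 6.71, 7.71 and 10.3 FPKM in N-replete libraries, which overlap, while g1964 was called lower. Early, g1963 was near 1 FPKM in N-deprived libraries (0.739 to 1.22 over 3 to 6 h), where adding 1 before the logarithm makes differences smaller.

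A tested model beside a member that is itself no member cannot meet both thresholds, so the thresholds are given apart. Of 73 tested models that flank a member and are no member, 8 (11.0%) had an early effect of -0.5 or less, against 5.12% of tested models, and 19 (26.0%) had a late effect of 0.5 or more, against 26.3%. Beside scaffold00185.g5951, 1314 bp away, lies scaffold00185.g5950, with an early effect of -0.90 and a late effect of -4.93. Beside scaffold00259.g7284, 104 bp away, lies scaffold00259.g7283, with an early effect of -2.48 and a late effect of -2.17. Both were chosen for mention after their values were seen.

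On different sequences, scaffold00009.g716 (1044572 to 1045553) and scaffold00242.g6391 (1326 to 2235) had nearly the same level throughout. The FPKM of g716 was 0.762 to 1.44 times that of g6391 over all 36 libraries. At 48 h g716 had 121, 103 and 135 FPKM in N-deprived libraries, against 43.9, 47.7 and 45.2 FPKM in N-replete libraries. At the same time g6391 had 127, 104 and 111 FPKM in N-deprived libraries, against 46.4, 48.3 and 44.3 FPKM in N-replete libraries. The pair was noticed after its values were seen. Whether the models are near-identical copies, among which the authors' counting could split fragments, was not tested, so their separate values are uncertain.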

How the data were processed

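Poly(A) RNA of N. oceanica IMET1 was fragmented and made into libraries without strand information, per the labels' protocols. The authors deposited FPKM per gene model for each of 36 libraries, for which the submitters' processing notes list the tools Cufflinks 2.0.2 and TopHat2 2.0.4 without settings. FPKM is divided by length and library total, and fragments of near-identical or adjoining models can be split between them. The build and gene annotation are not given in the sources used here. The table of the whole series and the tables of single libraries differed in 0 values.

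Models reaching 1 FPKM in 3 or more libraries were kept. Values were taken as log2(FPKM + 1), which understates changes of low models. The members and lists were chosen with earlier results of these data known. The contrast of the media at 12 h was fitted with limma 3.58.1 (R 4.3.3) on 12 group means over all 36 libraries with a trended prior variance, two-sided, with Benjamini-Hochberg adjustment over all 9647 models and calls at an adjusted p under 0.05. The fit was tested on simulated data. Rank tests of 3 against 3 libraries cannot go below a p of 0.1, so none was used. The relative depth per library was fitted so that low FPKM values fell near whole numbers of fragments. After the fit 96.0% of 3744 values of 138 low models were whole within 0.1. The fit aimed at this share, so it is no separate check of the depths. No count test was run, since FPKM are not counts.

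Named members were the 12 with the largest late minus early effect, the 6 with the highest mean FPKM, the 4 with the largest 12 h difference among those called in each direction, those nearest the thresholds, and neighbours. Alternatives were other pseudocounts, filters, scalings, thresholds and times, the 12 h libraries alone, a prior without trend, replicate blocks, and leaving out libraries. With no genome, no sequences were used here.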

Additional observations from a re-analysis of the deposited data

How the results depend on the processing

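The number of members changed with the thresholds, the scale and the times used. It was 14 with a pseudocount of 5 FPKM, 27 with each library centred on its median ratio (22 of them members here), 71 and 8 with thresholds of 0.4 and 0.7, and 38 to 48 without 1 replicate number. Chosen after seeing the data, 4 and 6 h alone as early times gave 25, 24 h alone as late time gave 15, and 48 h alone gave 72. Centring lowered the median difference over all models by 0.16 at 24 h (-0.16) and by 0.15 at 48 h (-0.15). At 12 h, higher calls among the members ran from 3 to 9 and lower calls from 8 to 14 over left-out replicates. Over all models they ran from 2796 to 4201 and from 1758 to 2359. The 3 members called higher came without replicate 1. The 8 members called lower came without replicate 3, without N-deprived 12 h replicate 3 and without N-replete 12 h replicate 3. Lower calls among the members were 16 after centring and 18 after quantile normalization, with 2937 and 2999 over all models. Over all models the share of calls that were higher was 61.8%, but 52.1% after centring and 51.1% after quantile normalization. The 12 h differences of 15 members, 1 of them called, lay on both sides of 0 over the 19 alternatives. Of these, 2 were called with the sign turned: scaffold00355.g10356 stood at 0.12 with quantile normalization, and scaffold00295.g8465, which was not called in the report, ran between -0.17 without replicate 1 and 0.22 without replicate 3. Replicate numbers did not pair the libraries (correlations of deviations -0.27 to 0.41, 4 of 18 pairs over 0.1, and 10 of 36 libraries best correlated with their own number). A replicate block gave 7 higher and 13 lower members, with 3688 and 2273 over all models. Culture as a random effect gave 7 and 14, with 3717 and 2306 over all models. Only relative depth was read, so how far depth limits models near 1 FPKM was not tested.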
